A study of Mus musculus with 9 samples.

Results

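A set of 8 genes that encode inhibitors of proteases was followed in mouse epidermis: the Kazal-type inhibitors Spink5 and Spink12, the Kunitz-type inhibitors Spint1 and Spint2, the stefins Stfa2l1 and Stfa3, and the secreted cystatins Cst3 and Cst6. They were taken by symbol, with every probe set that the platform annotation assigns to 1 gene alone. All 8 were measured, by 9 of 45037 probe sets, or as 8 of 18193 genes. Spint2 had 2 probe sets and each of the other 7 genes had 1.

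The samples were epidermal sheets of 9 adult mice on the hairless SKH1 background (5 backcross generations), 1 array per mouse. Mice of both groups were homozygous for floxed Alox12b, the gene of a lipoxygenase that oxidises barrier ceramides, and received 3 intraperitoneal injections of 1 mg tamoxifen at the age of 8 weeks. The 5 mice of the inactivated group (Alox12b fl/fl Cre) also carried the tamoxifen-dependent Cre-ERT2 recombinase under the keratin 14 promoter, whereas the 4 control littermates (Alox12b fl/fl) carried none, so effects of the deletion and of Cre itself cannot be told apart. Sheets were scraped off frozen skin 6 days after tamoxifen. Keratin 14 is made by basal keratinocytes, so recombination was directed to these cells and their descendants. All values are on a log2 scale, where 1 unit is a 2-fold difference. The number of arrays limits the precision.

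Protease inhibitors of the epidermis set how fast the outermost cells are shed and how far proteases act on barrier proteins. Kazal and Kunitz inhibitors block serine proteases such as kallikreins and matriptase. Stefins act inside cells, and the other cystatins outside them, on cysteine proteases such as cathepsins. Loss of SPINK5 in humans causes Netherton syndrome, and loss of Cst6 in mice causes the ichq phenotype of neonatal ichthyosis, so both are known as barrier genes.

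The question was which of these transcripts differed 6 days after Alox12b was inactivated. Spink12 and Stfa2l1 rose 43.1-fold and 19.5-fold, Stfa3 and Spint1 rose 1.87-fold and 1.42-fold, and Spink5 rose 1.23-fold. Cst3 fell to a level 1.47-fold lower, Spint2 to one 1.20-fold lower, and Cst6 did not pass the test. Of the 8 genes, 5 were thus higher, 2 lower and 1 not passing at an adjusted p below 0.05 (limma with Benjamini-Hochberg adjustment over all probe sets). Over all 18193 genes 34.4% passed, 15.5% higher and 18.9% lower, so passing alone was common on these arrays. A rise of at least 2-fold was rarer, with 2 of the 8 genes against 2.43% of all genes. The 8 genes had been chosen with earlier results known, and nothing particular to them is read from these counts. The groups did not overlap in 7 of the 8 genes and in 31.6% of all genes.

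**Figure D1:**
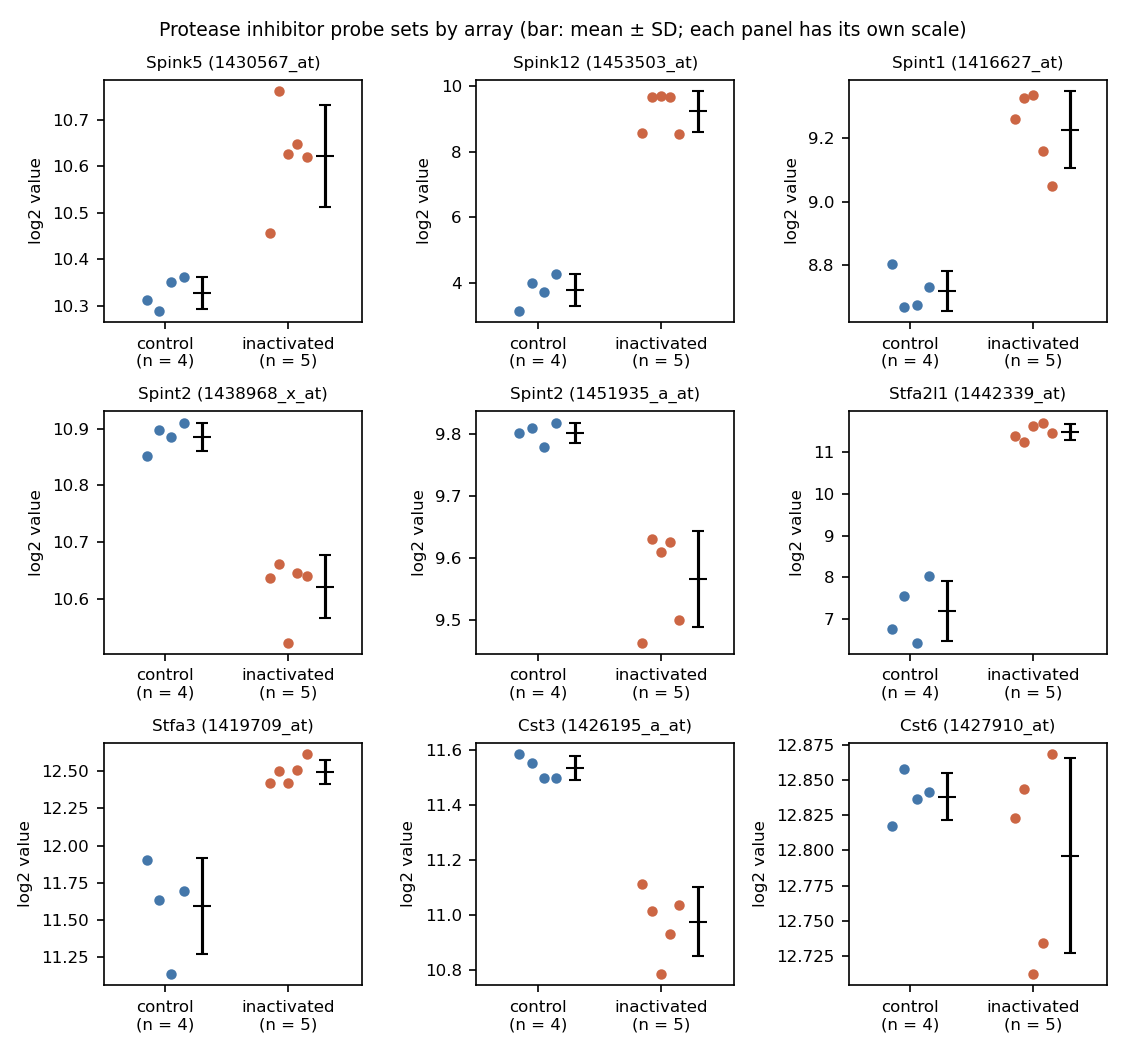
Log2 values of the 9 probe sets of the 8 inhibitors, 1 point per array (4 control, 5 inactivated), with the mean and SD of each group beside the points. Each panel has its own scale. Control and inactivated arrays are apart in every panel except Cst6.

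The arrays themselves were alike in scale, with a median between 4.34 and 4.42 and a maximum between 13.47 and 13.53 on each. On the first principal component, which held 63.4% of the variance, controls scored from -63.0 to -48.6 and inactivated arrays from 25.3 to 55.8, with inactivated replicate 5 lowest. With or without that array 5 of the 9 probe sets of the 8 genes were called higher and 3 lower, against 12.7% and 16.0% of all probe sets in the full comparison. The 6 keratinocyte markers had a mean level of 12.5 to 12.6 in the controls and 12.4 to 12.6 in the inactivated group. Of them 1 was higher (Krt14, 0.47), 1 lower (Trp63, -0.35) and 4 did not pass, among them the brightest, Krt10 and Krtdap, at 13.49 and 13.39 in the controls and 13.31 and 13.45 in the inactivated group. The groups did not overlap for Krt10. The mean levels of the fibroblast, macrophage, T cell, sebaceous and sweat gland lists did not overlap between the groups and are given further on. In scraped sheets fewer cells of a type, less RNA per cell and a different amount of attached dermis cannot be told apart. The fibroblast gene Col1a2 read 12.88 in the controls and 11.58 in the inactivated group.

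Spink12 (probe set 1453503_at), a small single-domain Kazal inhibitor, showed the largest difference of the 8. Its log2 values in the controls were 3.16, 4.01, 3.74 and 4.27 in replicates 1 to 4. In the inactivated group they were 8.56, 9.67, 9.68, 9.67 and 8.53 in replicates 1 to 5. All control values lay below the medians of the arrays, and inactivated replicates 1 and 5 lay about 1 unit under the other inactivated arrays, which differed from each other by little. The group means were 3.79 ± 0.48 (SD, n = 4) and 9.22 ± 0.62 (SD, n = 5). The rise of 5.43 ± 0.31 (SE; limma adjusted p = 2.62e-06) was the 4th largest of 18193 genes, and the gap between the groups was 4.25. The table holds no detection calls, so it does not say whether the control signal stood above background. If it did not, the fold is understated.

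Spink5 (1430567_at) encodes LEKTI, the long multi-domain inhibitor that restrains the kallikreins of desquamation. The controls read 10.31, 10.29, 10.35 and 10.36, and the inactivated arrays 10.46, 10.76, 10.63, 10.65 and 10.62. The control values were close together, and inactivated replicate 1 was the lowest of its group and only 0.093 above the highest control. The rise of 0.29 ± 0.07 passed (limma adjusted p = 0.0120, two-sided exact permutation p = 0.0159). It did not pass with the replicate number added to the fit as a block (limma adjusted p = 0.0551). These Kazal relatives changed by different amounts: the log2 ratio of Spink12 to Spink5 rose by 5.13 and its groups did not overlap. The exact permutation p of that difference was 0.00794, the smallest that 126 splits of the arrays can give. It was 0.0159 after adjustment over the 14 pairs of genes compared here, 4 of relatives and 10 of an inhibitor and a protease, all chosen after the data were seen.

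Among the 8 measured Kazal-type genes 3 were higher, 0 lower and 5 did not pass, with a median difference of 0.14 against 0.03 over all genes. Beside Spink5 and Spink12 only Spink10 rose, by 0.35 ± 0.11 (adjusted p = 0.0356), between levels of 1.93 and 2.28 that are far below the array medians. Spink2 differed by 0.38 (adjusted p = 0.0537) and Spink1 by -0.51 (adjusted p = 0.0885). Reck, a membrane-anchored inhibitor of metalloproteinases with Kazal-like repeats, differed by -0.68 (adjusted p = 0.0665).

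The Kunitz inhibitors Spint1 and Spint2, also called HAI-1 and HAI-2, are membrane proteins that block matriptase (St14) and prostasin (Prss8), and they changed in opposite directions. Spint1 (1416627_at) read 8.80, 8.67, 8.67 and 8.73 in the controls and 9.26, 9.33, 9.34, 9.16 and 9.05 in the inactivated group. Inactivated replicate 5 was the lowest of its group and still 0.246 above the highest control. Spint1 rose by 0.51 ± 0.08 (adjusted p = 0.000851).

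For Spint2 the brighter probe set (1438968_x_at) read 10.85, 10.90, 10.88 and 10.91 in the controls. It read 10.64, 10.66, 10.52, 10.65 and 10.64 in the inactivated group. The inactivated arrays were all lower than the controls, with replicate 3 the lowest. Spint2 fell by 0.26 ± 0.06 on this probe set (adjusted p = 0.00841). The other probe set (1451935_a_at) also fell, by 0.24 ± 0.06 (adjusted p = 0.0194), with controls of 9.78 to 9.82 and inactivated arrays of 9.46 to 9.63. The call of this other probe set was lost without control replicate 4 (adjusted p = 0.0525) and after subtraction of array medians (adjusted p = 0.0564). With the replicate number added to the fit as a block, neither probe set passed (limma adjusted p = 0.0515 for the brighter and 0.0965 for the other). The log2 ratio of Spint1 to Spint2 rose by 0.77, from between -2.23 and -2.05 in the controls to between -1.59 and -1.19 in the inactivated group. The groups did not overlap (exact permutation p = 0.00794, 0.0159 adjusted over the 14 pairs).

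Of 11 measured Kunitz-type genes 2 were higher, 3 lower and 6 did not pass, with a median of 0.03, equal to that of all genes. The amyloid precursor App, whose longer isoforms carry a Kunitz domain, fell by 0.82 ± 0.07 (adjusted p = 1.78e-05), and another bright probe set of App fell by 0.79. Ambp, the precursor of bikunin, rose by 0.90 ± 0.26 (adjusted p = 0.0257) from a level of 2.57, below the array medians. Aplp2 and Tfpi, the tissue factor pathway inhibitor, did not pass, with -0.15 and -0.03. Single dimmer probe sets of both passed, with a difference of 0.56 for Aplp2 and -0.57 for Tfpi.

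Stfa2l1 and Stfa3 belong to the mouse stefin A family, which lies in a cluster of near-identical genes, so their probe sets may also read relatives. The 250 bases before their start sites are shown because the pair changed by unequal amounts although the sequences are alike. Capitals mark bases that differ between them in a global alignment, gaps included. Both come from RefSeq, build GRCm38.p6, Stfa2l1 at chr16:36156561-36156810 on the plus strand and Stfa3 at chr16:36455393-36455642 on the minus strand, each written 5′ to 3′.
Stfa2l1: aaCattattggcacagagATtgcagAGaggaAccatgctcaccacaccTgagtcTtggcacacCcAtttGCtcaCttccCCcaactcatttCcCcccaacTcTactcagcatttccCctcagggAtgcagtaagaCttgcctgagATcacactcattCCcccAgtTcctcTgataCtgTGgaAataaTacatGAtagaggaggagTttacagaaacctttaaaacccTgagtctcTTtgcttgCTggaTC
Stfa3: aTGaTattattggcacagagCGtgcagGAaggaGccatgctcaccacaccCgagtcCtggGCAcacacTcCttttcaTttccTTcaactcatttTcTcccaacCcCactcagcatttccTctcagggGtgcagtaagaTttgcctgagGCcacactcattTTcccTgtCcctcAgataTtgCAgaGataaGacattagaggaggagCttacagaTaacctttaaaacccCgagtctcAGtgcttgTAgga
The windows share 206 bases, an identity of 82.4%. The window of Stfa2l1 shared 90.8% with that of Stfa2 and 51.2% with that of Csta1. In each of the windows 44 bases differ, spread along the whole length. Searches of both strands for TGANTCA, the AP-1 motif, for TTCNNNGAA, the STAT motif, for TTGCNNAA, the C/EBP motif, and for TATAAA, the TATA box, found no match in either. Windows of the same length before 32851 start sites held these motifs, in that order, in 6.75%, 7.02%, 9.56% and 12.4%. RefSeq windows were searched for 5 of the 8 genes (Spint1, Spint2, Stfa2l1, Stfa3 and Cst3). Entries of a whole chromosome were left out when these windows were picked, and Spink5, Spink12 and Cst6 were not searched. The windows of Spint1, Spint2 and Cst3 likewise gave no match. That says only that these letters are not in these windows.

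Stfa2l1 (1442339_at), an inhibitor of cathepsins within the cell, read 6.77, 7.56, 6.44 and 8.03 in the controls. It read 11.39, 11.23, 11.62, 11.71 and 11.46 in the inactivated group. The controls were spread over more than 1 unit, whereas the inactivated arrays lay close together, and 3.21 units separated the groups. The rise of 4.29 ± 0.28 (adjusted p = 4.77e-06) was the 14th largest of all genes.

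Stfa3 (1419709_at) started much nearer the top of the range. Its controls read 11.90, 11.64, 11.14 and 11.70 and the inactivated arrays 12.42, 12.50, 12.42, 12.51 and 12.61, with control replicate 3 the lowest of all and inactivated replicate 5 the highest. The groups did not overlap. Stfa3 rose by 0.90 ± 0.13 (adjusted p = 0.000650), and by 1.003 without control replicate 1. The log2 ratio of Stfa2l1 to Stfa3 rose by 3.38 (exact permutation p = 0.00794, 0.0159 adjusted over the 14 pairs). Array values can be compressed near the top of the range, where Stfa3 lies, and the part of this in the unequal rise was not tested.

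All 4 measured stefins rose, with a median of 0.84, where 15.5% of all genes were higher. Csta1, the other stefin A gene with a probe set assigned to it alone, rose by 0.77 ± 0.08 (adjusted p = 9.70e-05). Whether that probe set also reads relatives was not tested. Cstb, the stefin made in most tissues, rose by 0.36 ± 0.07 (adjusted p = 0.00441). A further 10 stefin genes of the list had no probe set assigned to them alone. Some stefins are also abundant in neutrophils. Of 9 measured neutrophil markers 3 were higher, 1 lower and 5 did not pass. Their mean level was 3.87 to 4.02 in the controls and 3.996 to 4.24 in the inactivated group, below the array medians in both. Cxcr2, Ltf and the collagenase Mmp8 rose by 0.34, 0.57 and 1.46, the last from 2.98 to 4.44, and Mpo fell by 1.41, from 5.93 to 4.52. The 5 that did not pass included Elane, Ngp and Camp, with group means between 2.74 and 3.51. The part of neutrophils in the stefin rise was not tested.

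**Figure D2:**
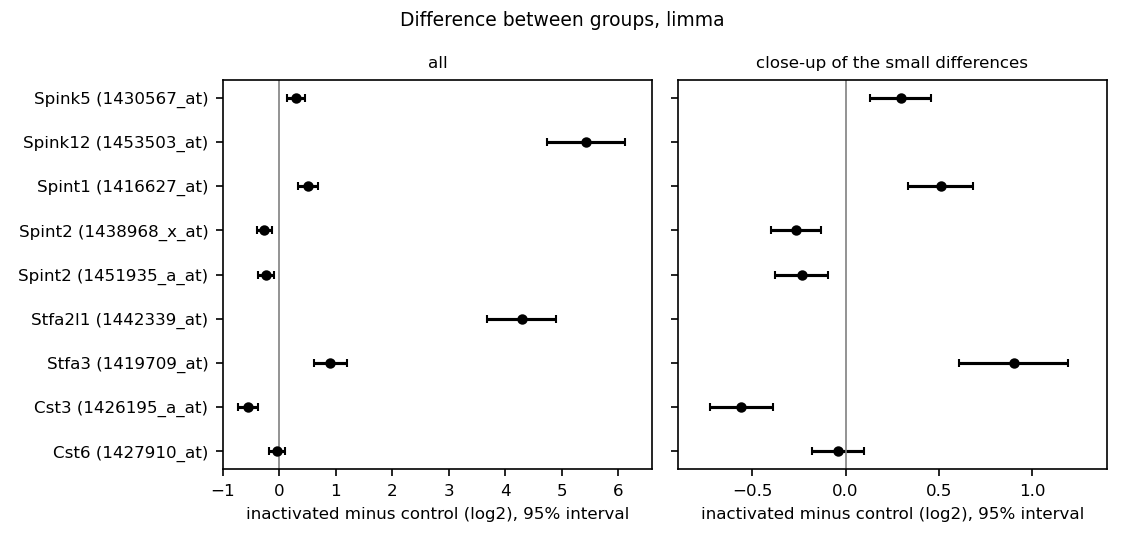
Difference of each probe set, inactivated minus control on the log2 scale, with the 95% interval from limma (5 and 4 arrays). The left panel shows the whole range and the right panel a close-up, which leaves Spink12 and Stfa2l1 outside. The interval of Cst6 is the one that includes 0.

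Cst3 (1426195_a_at), cystatin C, is a secreted inhibitor of cathepsins that most cells make. Its values were 11.59, 11.55, 11.50 and 11.50 in the controls and 11.11, 11.02, 10.78, 10.93 and 11.04 in the inactivated group. Every inactivated array lay at least 0.385 below the lowest control, with replicate 3 the lowest. Cst3 fell by 0.56 ± 0.08 (adjusted p = 0.000446).

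Of the markers of other cells that make Cst3, the fibroblast list fell as a whole. The macrophage list and the Langerhans and dendritic cell list fell in part. Over all genes 18.9% were lower. All 8 fibroblast markers fell, with a median of -1.05, and their mean level was 10.01 to 10.58 in the controls and 8.89 to 9.69 in the inactivated group. The collagens Col1a2 and Col3a1 fell by 1.30 and 0.91. Of 8 macrophage markers 5 fell and 3 did not pass, with a mean level of 8.89 to 9.16 in the controls and 8.04 to 8.85 in the inactivated group. Csf1r, the receptor that macrophages depend on, fell by 0.82, and Mrc1 differed by -0.29 without passing. Of 8 Langerhans and dendritic cell markers 4 fell and 4 did not pass, with a mean level of 8.87 to 9.04 in the controls and 8.27 to 8.90 in the inactivated group. Among them Cd74 and Epcam fell by 0.46 and 0.44, whereas a dimmer probe set of Epcam differed by 0.21 without passing. The part of these cells in the fall of Cst3 was not tested.

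Cst6 (1427910_at), cystatin M/E, inhibits cathepsin L (Ctsl) and legumain (Lgmn) in the upper epidermis. It read 12.82, 12.86, 12.84 and 12.84 in the controls and 12.82, 12.84, 12.71, 12.73 and 12.87 in the inactivated group, so that the groups overlapped. Inactivated replicates 3 and 4 were the lowest of all arrays and inactivated replicate 5 the highest. The difference was -0.04 ± 0.06 (adjusted p = 0.653; two-sided exact permutation p = 0.349), with a 95% interval of -0.18 to 0.097. Its sign turned, to 0.0021, when array medians were subtracted. Its values lie near the array maxima, where a rise can be compressed, and whether this was so was not tested.

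The log2 ratio of Cst3 to Cst6 fell by 0.52 and its groups did not overlap (exact permutation p = 0.00794, 0.0159 adjusted over the 14 pairs). Of the 11 measured cystatins of these types 1 was higher, 1 lower and 9 did not pass, with a median of 0.09. The gene that rose was Fetub, fetuin-B, which carries cystatin domains. It went from 5.41 ± 0.87 (SD, n = 4) to 9.17 ± 0.58 (SD, n = 5), a rise of 3.76 ± 0.40 (adjusted p = 8.34e-05). Cst7, a cystatin of leukocytes, differed by -0.49 (adjusted p = 0.0841), and Cst13 by 0.27 (adjusted p = 0.0823).

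**Figure D3:**
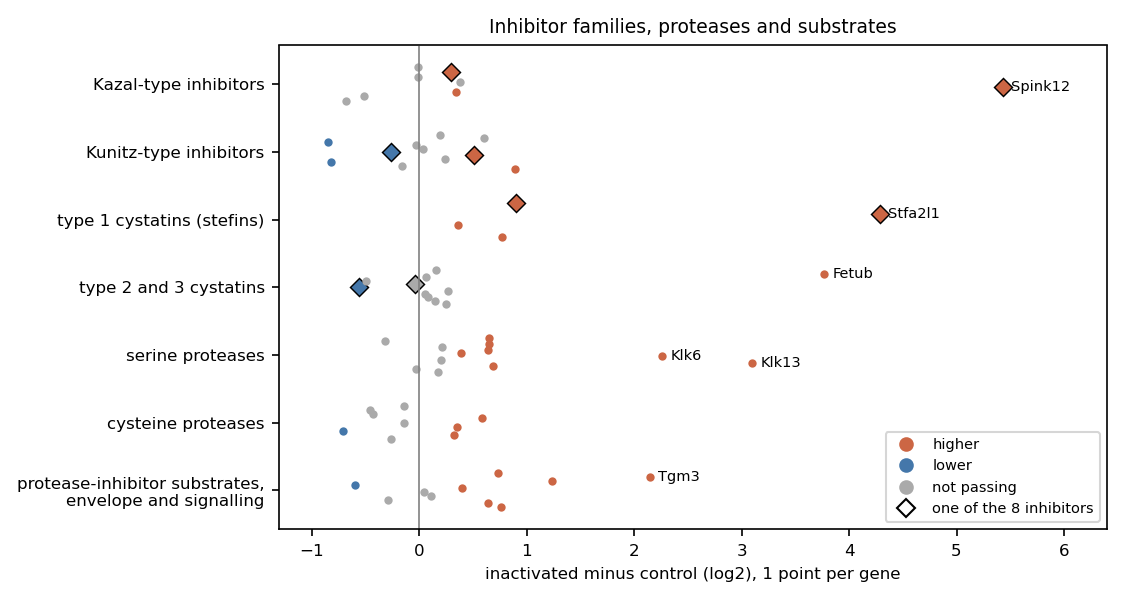
Difference of each measured gene of 7 lists, inactivated minus control on the log2 scale, 1 point per gene. Orange points were higher, blue points lower and grey points did not pass, and diamonds are the 8 inhibitors. Spink12, Stfa2l1 and Fetub lie far to the right of the other inhibitors.

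Proteases that these inhibitors can hold were counted in the same way. For this list and the next 2, the shares over all genes were 15.5% higher and 18.9% lower. These lists were chosen with earlier results known. Of 12 measured serine proteases, kallikreins and membrane-anchored enzymes, 7 were higher, 0 lower and 5 did not pass, with a median of 0.52 against 0.03 over all genes. Klk6 and Klk13, kallikreins of the upper epidermis, rose by 2.26 ± 0.11 and 3.10 ± 0.16. Klk11 rose by 0.69 and Tmprss13 by 0.65. Klk5 did not pass (0.20 ± 0.19, adjusted p = 0.459), nor did Prss8 (0.22 ± 0.09, adjusted p = 0.0870).

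Of 9 cysteine proteases 3 were higher, 1 lower and 5 did not pass, with a median of -0.14. Cathepsin L rose by 0.58 ± 0.07 (adjusted p = 0.000143), Ctsh by 0.35 and Ctsc by 0.32, while Ctsf fell by 0.71. A second bright probe set of Ctsh did not pass (0.10). Ctsb differed by -0.26 (adjusted p = 0.0541) on its brightest probe set, and its probe sets 1417492_at and 1417491_at were lower with -0.72 and -0.59. Ctsk, the collagen-degrading cathepsin, differed by -0.14 without passing.

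Among 10 measured substrates and signalling partners of these proteases, 6 rose, 1 fell and 3 did not pass, and the median was 0.52. The transglutaminases Tgm3, which cathepsin L can activate, and Tgm1 rose by 2.15 ± 0.21 and 1.23 ± 0.13. Corneodesmosin (Cdsn), a kallikrein substrate that holds corneocytes together, rose by 0.76, and the desmosomal cadherin Dsc1 by 0.64. Filaggrin (Flg) and Dsg1a did not pass, with 0.11 and -0.29.

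Transcripts of an inhibitor and of a protease it can hold were set against each other as a log2 ratio within each array, for 10 such pairs, also chosen after the data were seen. The ratio shows unequal change of the transcripts and no level of either protein. In 3 of them the groups did not overlap and the exact permutation p was 0.00794 (0.0159 adjusted over all 14 pairs). Spint2 fell relative to St14, by 0.91, and relative to Prss8, by 0.48. Cst6 fell relative to Ctsl by 0.62, with ratios of 0.77 to 0.83 in the controls and 0.086 to 0.379 in the inactivated group. Both of these transcripts read near the top of the range. Without any 1 inactivated array the adjusted p of these 3 pairs and of the 4 pairs of relatives was 0.0571. The exact p was then the smallest that the remaining arrays allow (0.0286). The loss of these calls thus follows from the number of arrays and does not show that they rest on any 1 mouse. Without any 1 control array their adjusted exact p was 0.0357. Over all arrays left out, Spint2 to St14 ranged from -0.95 to -0.85 and Cst6 to Ctsl from -0.68 to -0.60.

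The other 7 pairs did not pass. The ratio of Spink5 to Klk5 differed by 0.092 (adjusted exact p = 0.778). It ranged from -0.44 to 0.45 in the inactivated group and from -0.27 to -0.14 in the controls, so the inactivated arrays spread to both sides of the controls. Spink5 to Klk7, the chymotrypsin-like kallikrein of shedding, differed by -0.099, by -0.20 after quantile normalisation (exact p = 0.0476, adjusted 0.0741) and by -0.028 without inactivated replicate 1. The ratio of Spint1 to St14 differed by -0.14 (adjusted exact p = 0.178) and that to Prss8 by 0.29 (adjusted exact p = 0.111). Cst3 to Ctsb differed by -0.30 (exact p = 0.0476, adjusted 0.0833), Cst3 to Ctss by -0.13 and Cst6 to Lgmn by 0.095. A ratio that did not pass does not show that both transcripts moved alike.

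**Figure D4:**
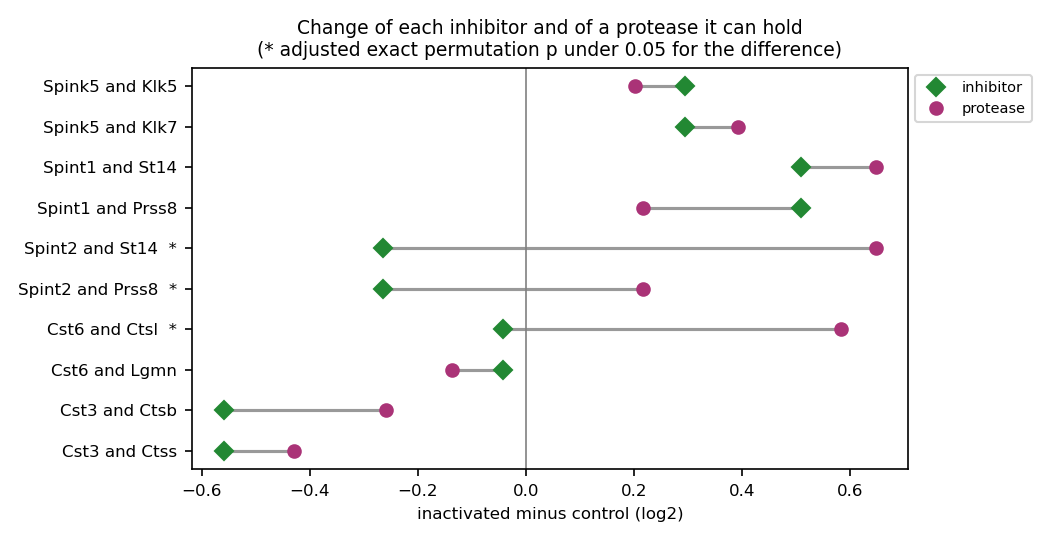
Change of an inhibitor (green diamond) and of a protease it can hold (purple circle), inactivated minus control on the log2 scale, for 10 pairs. Asterisks mark the 3 pairs whose log2 ratio differed between the groups, Spint2 with St14, Spint2 with Prss8 and Cst6 with Ctsl.

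For each inhibitor that passed, the genes with the most similar pattern were found as those with the smallest mean absolute difference over the 9 arrays, after centring each gene on its control mean. This is a description of these arrays, in which the difference between the groups dominates. Nearest to Spink12 were the phospholipase Pla2g4d (0.457), the late envelope gene Lce3a (0.460) and the small proline-rich gene Sprr2f (0.460), which rose by 5.21, 5.61 and 5.36. Nearest to Stfa2l1 were Tcf23 (0.250), Sprr2d (0.254) and Cdhr1 (0.277), and nearest to Stfa3 were Ttc39a (0.094), Vegfa (0.099) and Icosl (0.108). For the small changes the nearest genes lay at 0.023 to 0.053. They were Chchd7, Gdf2 and Ap1m2 for Spink5, Smpd1, Zkscan6 and Tjp1 for Spint1, Lamtor3, Rab7 and Ppp2r5a for Spint2, and Smg1, Zc3hav1 and Nipa2 for Cst3.

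The order of the inactivated mice was not the same in every gene. Inactivated replicate 5 was the lowest of its group for Spink12 and Spint1, the highest for Stfa3 and Cst6, and in between for Spink5, Stfa2l1, Cst3 and the brighter Spint2 probe set. Inactivated replicate 1 was the lowest for Spink5 and the highest for Cst3. Among the controls, replicate 1 was the lowest for Spink12 and the highest for Stfa3.

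Markers of other skin compartments were not uniform. Of 5 measured markers of sebaceous gland and hair follicle duct 2 fell and 3 did not pass, with a mean level of 7.15 to 7.39 in the controls and 6.48 to 7.08 in the inactivated group. Krt79, a keratin of the follicle opening, fell by 0.90, and Elovl3 differed by 0.12. Of 5 sweat gland markers, with a mean level of 2.84 to 3.17 in the controls and 3.40 to 3.95 in the inactivated group, 1 rose. It was the water channel Aqp5, by 3.11 from a level of 4.12, and Krt8 did not pass, with group means of 3.94 and 4.20. Of 4 measured T cell markers 1 was higher, 2 lower and 1 not passing, with a mean level of 5.51 to 5.82 in the controls and 4.70 to 5.09 in the inactivated group. Cd3g fell by 2.50 and Cd3e differed by -0.19. Their part in the changes of Spink12, Spink5, Spint1 and Spint2 was not tested.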

How the data were processed

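Total RNA of 9 mice was read on Affymetrix mouse arrays after labelling primed from the 3' end, per the labels' protocols. The authors deposited 1 table of log2 values for 45037 probe sets. The submitters' processing notes name the R package affy and no version. How probes were summarised and normalised is not stated in any source used here. Values were read as log2 because the highest, 13.47 to 13.53 per array, exceed the natural log of the largest scanner value (11.09). All columns were used as deposited, without a filter.

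Symbols came from the platform annotation: 34945 probe sets had 1, 932 had several and 9160 were not listed. A gene was read on its probe set with the highest mean. Groups were compared with limma 3.58.1 in R 4.3.3 (lmFit and eBayes, two-sided, 7 residual degrees of freedom), adjusted by Benjamini-Hochberg over all probe sets. Ratios were compared by exact permutation over 126 splits (two-sided). The fit was tested on simulated arrays. The labels call the samples biological replicates and give no batch. The named genes were all 8 inhibitors, from each pathway list up to 4 genes with the lowest adjusted p and up to 2 bright ones that did not pass, from each marker list the 2 brightest, and 3 genes of like pattern per inhibitor that passed; Klk7, St14, Ctss and Lgmn were named for their pairs, and Elane, Ngp, Camp, Ltf, Mmp8, Krt14 and Trp63 after their values were seen. The inhibitors and lists were chosen with earlier results of these data known. Promoter windows were aligned with Biopython 1.88. Alternatives were quantile normalisation, median subtraction, a filter on dim probe sets, an intensity trend with robust prior, array weights, sex (from Xist and Y-linked transcripts) as a covariate, the replicate number as a block, other probe set rules, a threshold of 0.01 for the lists, and each array left out.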

Additional observations from a re-analysis of the deposited data

Results flagged for a closer look

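In the inactivated group the brighter Spint2 probe set (1438968_x_at) read 10.52 on replicate 3, while the other 4 arrays lay between 10.64 and 10.66. The gap to the nearest array was 0.822 of the whole range. Of 18 groups of arrays examined this was the 1 with an outlying array, and the limit used is one that chance passes in about 1 in 20 groups. The other Spint2 probe set read 9.61 on the same array, within its group.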

How the results depend on the processing

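Leaving out each array in turn gave 5 higher probe sets of the 8 genes each time and 2 to 3 lower, and over all probe sets 4161 to 5931 higher and 5753 to 7381 lower. The differences ranged from 5.22 to 5.60 for Spink12, 4.03 to 4.56 for Stfa2l1, 0.75 to 1.003 for Stfa3, 0.48 to 0.55 for Spint1, 0.26 to 0.34 for Spink5, -0.28 to -0.24 for the brighter Spint2 probe set, -0.25 to -0.21 for the other, -0.59 to -0.51 for Cst3 and -0.060 to -0.021 for Cst6. Cst6 read 0.0021 after array medians were subtracted. With the replicate number as a block, 1 probe set of the 8 genes was called lower in place of 3 and 4 higher in place of 5. Spink5 then read 0.29 (adjusted p = 0.0551) and Spint2 -0.27 (adjusted p = 0.0515), and the other Spint2 probe set -0.22 (adjusted p = 0.0965). Over all probe sets the block gave 4679 higher and 6329 lower. By Xist and Y-linked transcripts the controls were 1 female and 3 males, and the inactivated group 3 females and 2 males. With sex as a covariate 5 probe sets of the 8 genes were still called higher and 3 lower. Subtraction of array medians turned the balance, from 5698 higher and 7202 lower as deposited to 7443 higher and 6342 lower. Deviations of same-numbered arrays correlated between -0.27 and 0.078, and those of differently numbered arrays between -0.13 and 0.21. With 4 same-numbered pairs and such small groups, this cannot exclude that the labels' numbers pair the mice. The block spends 4 degrees of freedom and leaves inactivated replicate 5 without weight. At an adjusted p of 0.01 the Kazal list had 1 higher gene in place of 3 and the Kunitz list 1 in place of 2.

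For the pairs, ranges over the left-out arrays were -0.050 to 0.17 for Spink5 and Klk5, -0.14 to -0.028 for Spink5 and Klk7, -0.083 to 0.18 for Cst6 and Lgmn, and -0.22 to 0.012 for Cst3 and Ctss. Cst3 and Ctsb ranged from -0.36 to -0.25, and Spint1 and Prss8 from 0.24 to 0.38. The cause of these changes was not tested. The number of arrays and possible compression at both ends of the scale, which was not tested, limit these values. Of the inhibitors, Spink12 in the controls and Cst6 in both groups lie nearest those ends.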

Other observations

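Genes next to the inhibitors on the chromosome, the nearest protein-coding pair on each side in GRCm38.p6, were looked up to see whether neighbours changed too. Of 32 such places 20 held a measured gene, of which 5 passed and 15 did not. Over all genes 34.4% passed, so nothing particular to neighbours is read from this count. Csta1 and Ccdc58, on one side of Stfa2l1, rose by 0.77 and 0.53. Ppp1r14a, an inhibitor of myosin phosphatase that lies beside Spint2, fell by 1.66 ± 0.18 (adjusted p = 0.000114). Eif1ad near Cst6 rose by 0.56 and Syndig1 near Cst3 by 0.48, opposite in sign to Cst3. The cystatin genes around Cst3, which are Cst9, Cstdc2 and Cst10, did not pass, with 0.06, 0.15 and 0.15. The genes around Spint1 (Zfyve19, Ppp1r14d, Rhov and Vps18) did not pass either, with differences between -0.21 and 0.08. Spink5 and Spink12 lie in 1 cluster of Kazal genes with Spink14 and Spink6 between them.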
